A study of Homo sapiens with 9 samples.

Results

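The mRNAs of the mitochondrial ribosomal proteins were followed in RNA that co-purified with the CCR4-NOT complex from HEK293T cells, a human embryonic kidney line. They were taken as the protein-coding genes whose symbol starts with MRPL or MRPS and a number. This gave 78 of the 30956 genes in the deposited table, 49 of the large subunit (MRPL) and 29 of the small subunit (MRPS). The RNA immunoprecipitation (RIP) group held 3 libraries, recovered through a V5-tagged CNOT7 carrying the D40A substitution, which impairs the catalytic activity of this nuclease subunit. The 6 input libraries came from the same line, 3 given doxycycline at 3 ug/mL for 24 h and 3 without it. Whether the RIP cells received doxycycline, what drives the tagged CNOT7, and whether the cells are 1 clone is not stated in the labels, and no immunoprecipitate from untagged cells was analysed here. The table has 6 library columns, 3 of RIP and 3 of input, and the input columns could be placed in the input group but not with or without doxycycline.

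The mitochondrial ribosome translates the few proteins encoded in mitochondrial DNA, all of them subunits of the respiratory chain and ATP synthase. Its RNAs are made inside the organelle, while all of its proteins are encoded in the nucleus, translated in the cytoplasm and imported. Many have counterparts in bacterial ribosomes, and others occur only in mitochondria. CCR4-NOT removes the poly(A) tails of mRNAs in the cytoplasm, the first step in the turnover of many of them. CNOT7 is one of its deadenylases.

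RefSeq sequence (GRCh38.p14) around the annotated start was read for the members at the ends of the range described below and for a few cytosolic ribosomal proteins. A pyrimidine tract at the first base, the TOP element, is the known mark of cytosolic ribosomal protein mRNAs. Each stretch holds 60 bases, and the first transcribed base is base 31. The first set are the only members called higher in RIP. MRPL44 is at chr2:223957433-223957492 on the plus strand, MRPL50 at chr9:101398589-101398648 and MRPL17 at chr11:6683311-6683370, both on the minus strand. Capitals mark, in MRPL44, a tract of a C and at least 4 further pyrimidines at the first base and, in MRPL50, the YY1-type word AAGATGG.
MRPL44: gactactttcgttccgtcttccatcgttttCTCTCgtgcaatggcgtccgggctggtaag
MRPL50: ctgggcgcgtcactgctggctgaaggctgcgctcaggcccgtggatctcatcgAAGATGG
MRPL17: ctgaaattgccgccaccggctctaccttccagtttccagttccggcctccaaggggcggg

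The second set are members far below input. MRPL41 is at chr9:137551849-137551908 on the plus strand, MRPL11 at chr11:66438819-66438878, MRPS15 at chr1:36464355-36464414 and MRPS34 at chr16:1773105-1773164, all 3 on the minus strand. MRPS7 is at chr17:75261849-75261908 on the plus strand. MRPS30, at chr5:44808917-44808976 on the plus strand, stayed near its input level. Capitals mark the ETS-type word CCGGAAG on either strand, here in MRPS34, and the YY1-type word in MRPS7 and MRPS30.
MRPL41: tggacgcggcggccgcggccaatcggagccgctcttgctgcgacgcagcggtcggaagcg
MRPL11: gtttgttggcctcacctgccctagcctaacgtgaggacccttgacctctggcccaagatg
MRPS15: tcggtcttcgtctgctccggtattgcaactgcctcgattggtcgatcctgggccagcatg
MRPS7: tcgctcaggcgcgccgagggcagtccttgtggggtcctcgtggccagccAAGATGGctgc
MRPS34: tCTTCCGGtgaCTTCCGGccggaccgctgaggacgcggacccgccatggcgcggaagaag
MRPS30: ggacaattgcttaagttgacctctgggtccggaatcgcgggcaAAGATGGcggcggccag

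For comparison, RPS6 is at chr9:19380207-19380266 on the minus strand and RPS19 at chr19:41860225-41860284 on the plus strand, with the pyrimidine tract in capitals. RPL32, at chr3:12841536-12841595 on the minus strand, and RPL11, at chr1:23691749-23691808 on the plus strand, have no such tract at the table's first base, and the capitals in RPL11 are the ETS-type word.
RPS6: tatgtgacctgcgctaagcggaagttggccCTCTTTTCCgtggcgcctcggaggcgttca
RPS19: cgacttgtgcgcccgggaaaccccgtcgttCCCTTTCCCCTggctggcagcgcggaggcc
RPL32: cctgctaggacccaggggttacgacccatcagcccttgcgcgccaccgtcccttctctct
RPL11: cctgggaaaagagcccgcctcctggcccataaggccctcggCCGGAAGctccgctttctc

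The libraries held 37140622 to 40764899 reads in genes in RIP and 37290120 to 38918356 in input. Mitochondrially encoded RNA took 0.931% to 1.12% of these reads in RIP and 18.6% to 26.6% in input, which bears on any scaling by total reads. RIP replicate 2 had no read in 14786 genes, against 6398 and 6720 in the other RIP libraries. CNOT7, the bait, held 79593 to 100226 normalized counts in RIP and 24412 to 25361 in input. CNOT1, which is not the bait, held 143392 to 145953 in RIP and 31695 to 39601 in input. A higher level in RIP is thus not specific to the bait, and the CNOT7 counts do not check the labels. Whether the tagged CNOT7 adds to its counts was not tested. Of the line's markers, PAX2, LHX1, EYA1, NEFM and VIM had reads in all 6 libraries. ALB and CDH5, of hepatocytes and endothelium, had no read in input and at most 10.8 and 2.48 normalized counts in RIP. COL1A1, of fibroblasts, held 322 to 545 over both groups. Normalized counts are the reads of a gene divided by the authors' size factor for the library. A fold is the difference in log2(normalized count + 1) between RIP and input. A member was called when limma's adjusted p (Benjamini-Hochberg over the 16674 genes tested) was under 0.05. In bulk RNA, fewer cells with an mRNA and less of it per cell cannot be told apart.

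Most mitochondrial ribosomal protein mRNAs were recovered below their input level. Of 75 tested members, 46 were lower in RIP and 3 were higher, and 26 did not pass the test. Over all tested genes, 21.3% were called lower and 22.5% higher, against 61.3% and 4.0% of the tested members. Over the 13349 tested protein-coding genes, 25.3% were lower and 26.0% higher. The median log2 fold of the members was -0.71, with quartiles at -1.08 and -0.32, beside -0.05 for all tested genes. A fold below 0 was measured for 68 of the 75. At least 2-fold, 24 members were lower and 1 was higher, where 10.7% of tested genes were lower and 11.4% higher. The 3 RIP libraries lay below all 3 inputs for 46 members and above them for 3, against 27.5% and 27.3% in the whole test. By DESeq2 in the authors' deposited table, 47 members were lower and 3 higher, where 19.9% and 20.6% of the genes with an adjusted p were lower and higher.

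Summed over all members, the RIP libraries held 93343, 107051 and 113904 normalized counts and the inputs 145825, 163845 and 174611. The highest RIP sum was thus below the lowest input sum. As a share of all reads in genes the sums were 0.304%, 0.352% and 0.380% in RIP and 0.359%, 0.385% and 0.386% in input, and here the groups overlapped. Without mitochondrially encoded RNA the shares were 0.307%, 0.356% and 0.384% in RIP against 0.441%, 0.498% and 0.526% in input, with no overlap. The level of the members relative to all RNA therefore depended on whether mitochondrially encoded RNA was counted. With library scaling by total reads, 20 members were lower and 5 higher, where 9.91% of tested genes were lower and 36.9% higher. That scaling moved the median of all tested genes to 0.43 and that of the members to -0.21, so the distance between both medians was -0.64, beside -0.66 with the authors' size factors.

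**Figure D1:**
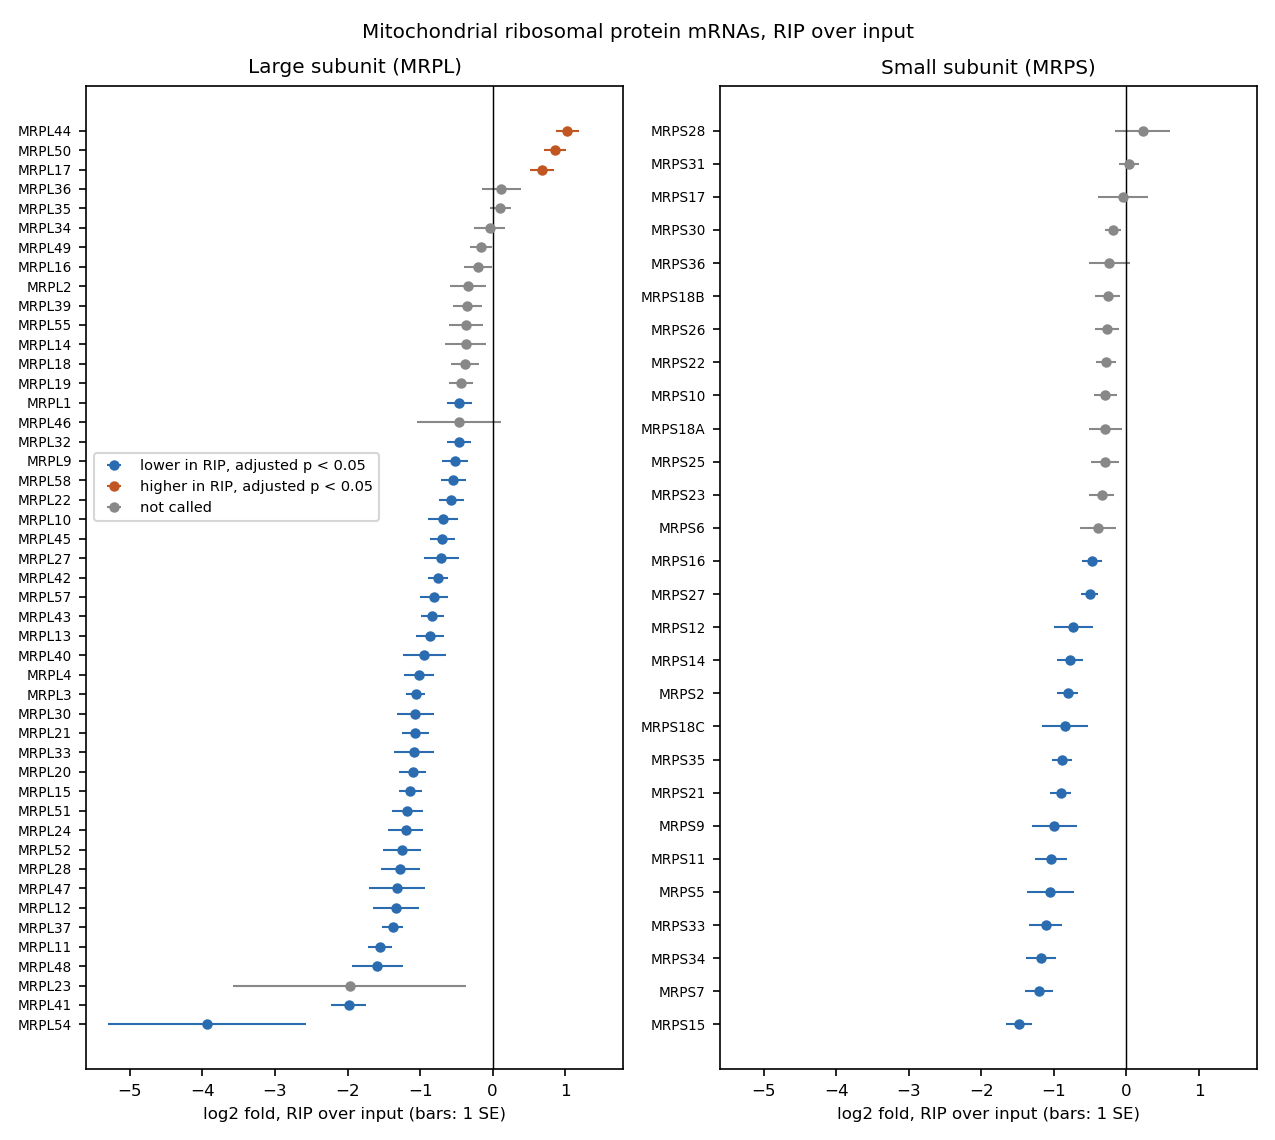
Log2 fold of RIP over input for the 75 tested members, ordered by fold, with the large subunit on the left and the small subunit on the right. Points are fitted folds from 3 RIP and 3 input libraries, bars are 1 SE, and colour gives the call. The points lie left of 0 for 68 members, and the 3 orange points are MRPL44, MRPL50 and MRPL17.

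The members called higher were all of the large subunit. MRPL44, a protein with a ribonuclease III-like fold, held 3613, 4185 and 4420 normalized counts in RIP and 1592, 2370 and 2075 in input. All 3 RIP libraries stood above all inputs, and the log2 fold was 1.03 ± 0.16 (SE, n = 3 per group, limma adjusted p = 0.00026), or 2.04-fold. MRPL50, found only in mitochondrial ribosomes, held 2635, 1994 and 2178 in RIP against 1114, 1301 and 1329 in input. Its groups did not overlap either, with a fold of 0.86 ± 0.15 (SE, limma adjusted p = 0.00075). MRPL17, the counterpart of bacterial L17, held 2602, 2697 and 3536 in RIP against 1495, 2107 and 1907. Its groups were likewise apart, at a fold of 0.68 ± 0.17 (SE, limma adjusted p = 0.0060). All 3 passed the threshold in each of the 15 alternative tests and scalings.

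Among the large-subunit members below input, MRPL41 had the lowest well-measured fold. This mitochondria-specific protein gave 287, 191 and 296 normalized counts in RIP and 882, 1032 and 1113 in input. All 3 RIP libraries lay far below the lowest input, and the fold was -1.98 ± 0.24 (SE, limma adjusted p = 4.6e-05). MRPL48, of the central protuberance, held 349, 143 and 408 in RIP and 825, 765 and 885 in input. Replicate 2 was the low RIP library, and the fold was -1.59 ± 0.35 (SE, limma adjusted p = 0.0027). MRPL11, at the base of the stalk that recruits translation factors, held 760, 1031 and 790 against 2247, 2500 and 2787. The RIP libraries lay close together and far below input, at -1.55 ± 0.17 (SE, limma adjusted p = 1.8e-05).

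MRPL37, a mitochondria-specific protein, held 4801, 4976 and 6250 normalized counts in RIP and 11470, 14696 and 15531 in input. The fold was -1.38 ± 0.15 (SE, limma adjusted p = 1.9e-05) and the groups did not overlap. MRPL12, the stalk protein related to bacterial L7/L12, held 125, 156 and 181 against 308, 415 and 450. Here too every RIP library was below every input, with a fold of -1.33 ± 0.31 (SE, limma adjusted p = 0.0043). MRPL54 had the lowest fitted fold, but on few reads: 64.6, 0 and 113 in RIP against 272, 311 and 312. RIP replicate 2 had no read, all RIP values were below all inputs, and the fit was -3.93 ± 1.36 (SE, limma adjusted p = 0.035). Without RIP replicate 2 the fold was -1.79 ± 0.32 (SE). Without any 1 of the inputs its adjusted p was 0.077 to 0.097. Over its 15 alternatives it ran from 0.00065 to 0.24, and 8 passed the threshold. In the authors' deposited table its fold was -2.33 with an adjusted p of 0.15.

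In the small subunit, MRPS15, the counterpart of an rRNA-binding protein of bacteria, was the lowest. It held 968, 1177 and 1410 normalized counts in RIP and 2783, 3100 and 4053 in input. Its highest RIP library lay well under its lowest input, at a fold of -1.48 ± 0.18 (SE, limma adjusted p = 4.8e-05). MRPS7, which in bacteria organises the head of the subunit, held 927, 814 and 1268 against 1987, 2750 and 2165. The fold was -1.21 ± 0.19 (SE, limma adjusted p = 0.00031). MRPS34, a mitochondria-specific protein, held 662, 987 and 1020 against 1567, 2275 and 2165. The fold was -1.18 ± 0.21 (SE, limma adjusted p = 0.00065), and neither MRPS7 nor MRPS34 had overlapping groups.

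MRPS33, also mitochondria-specific, held 483, 396 and 709 normalized counts in RIP and 962, 1153 and 1245 in input, at -1.11 ± 0.23 (SE, limma adjusted p = 0.0020). MRPS5, whose bacterial counterpart bears on decoding accuracy, held 138, 159 and 218 against 328, 446 and 294. The groups were apart and the fold was -1.05 ± 0.32 (SE, limma adjusted p = 0.020). Its adjusted p was 0.065 without RIP replicate 1 and 0.096 without 1 of the inputs, and it ran from 0.00038 to 0.19 over 15 alternatives. MRPS11, the counterpart of bacterial S11, held 752, 516 and 877 against 1247, 1723 and 1364, at -1.03 ± 0.22 (SE, limma adjusted p = 0.0022). The input at 1723 and the RIP library at 516 were the extremes of MRPS11, and the groups did not overlap.

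**Figure D2:**
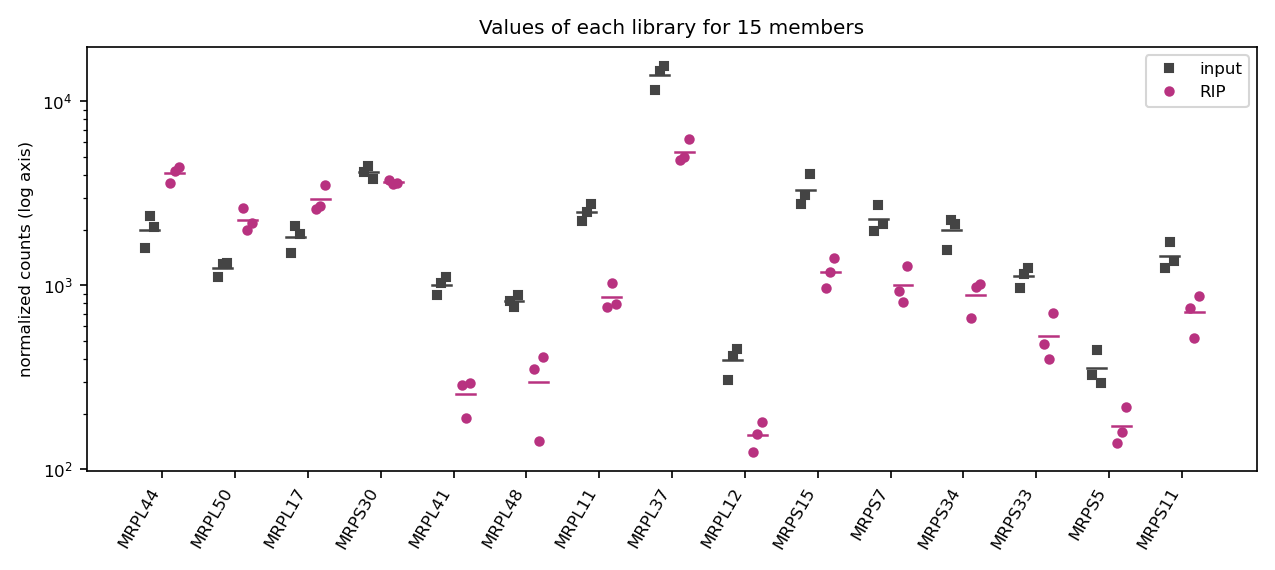
Normalized counts, on a log axis, of 15 members in each library. Squares are the 3 inputs, circles the 3 RIP libraries and short lines the group means. The RIP circles lie above the input squares for MRPL44, MRPL50 and MRPL17 and below them for the other 12, closely so for MRPS30.

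Nearest inside the threshold stood MRPS18C and MRPL1. MRPS18C, 1 of 3 human proteins related to bacterial S18, was called at a fold of -0.84 ± 0.32 (SE, limma adjusted p = 0.048) with overlapping groups. Its RIP values of 456, 341 and 885 normalized counts spread widely beside inputs of 732, 962 and 1129. Its fold was -0.54 without RIP replicate 2, and it passed in 7 of 15 alternatives, with adjusted p from 0.0017 to 0.39. It was not called by edgeR, without RIP replicate 1 or 2, or without either of 2 inputs. MRPL1, of the mobile stalk at the tRNA exit side, was called at -0.46 ± 0.17 (SE, limma adjusted p = 0.048), with 724, 963 and 796 in RIP against 1074, 1113 and 1213. It too passed in 7 of 15 alternatives, with adjusted p from 0.014 to 0.90, and was not called without RIP replicate 1 or 3 or without any 1 of the inputs. Just outside stood MRPL19, with 4605, 5887 and 3504 against 6698, 6226 and 5651 and a fold of -0.44 ± 0.17 (SE, limma adjusted p = 0.056). MRPL19 passed in 5 of 15 alternatives, with adjusted p from 0.0068 to 0.83. In the authors' deposited table it was lower (DESeq2 adjusted p = 0.034). MRPS22 followed at -0.28 ± 0.14 (SE, limma adjusted p = 0.13), with 2241, 2750 and 3061 against 3004, 3354 and 3371, and passed in 0 of 15. Of the 26 members not called, 22 had a fold below 0.

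The 3 untested members had too few reads for the filter of at least 10 normalized counts in 3 libraries. MRPL53 had no read in any of the 6 libraries. MRPL38 held 14.1, 0 and 8.62 normalized counts in RIP and 8.35, 0 and 29.1 in input. MRPS24 held 3.31, 0 and 5.49 against 25.1, 9.14 and 36.04, and its whole span lies in the readthrough gene URGCP-MRPS24. On these few reads the authors' deposited table has it lower, at -3.00 (DESeq2 adjusted p = 0.043). It is thus among the 47 members lower there. MRPL23 passed the filter with 4.97, 0 and 7.84 against 12.5, 19.4 and 10.5, at a fold of -1.97 ± 1.60 (SE, limma adjusted p = 0.35). In 6 members more than 50% of the span lies in another RefSeq gene, among them MRPL28, MRPS16 and MRPL43. Whether the counting used strand is not stated in the labels. In input, none of 26 pseudogene rows named for a member held more than 0.539% of its parent's level. In RIP, MRPS31P4 held a mean of 44.0 normalized counts, beside 3.83 in input, at a fold of 3.46 (limma adjusted p = 0.13). The RIP mean of MRPS31 was 1651.

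By symbol, the large subunit had 31 of 47 tested members lower and 3 higher, with a median fold of -0.75. The small subunit had 15 of 28 lower and 0 higher, with a median of -0.49. Of all tested genes, 21.3% were lower and 22.5% higher. No small-subunit member was higher at an unadjusted limma p under 0.05 either, nor by edgeR (0) or DESeq2 (0) on the recovered reads. These medians depend on where a few proteins are placed. MRPS30 and MRPS18A carry small-subunit symbols but sit in the large subunit of the human mitochondrial ribosome, and MRPS36 is a component of the oxoglutarate dehydrogenase complex. With MRPS30 and MRPS18A moved and MRPS36 left out, the medians were -0.71 (49 tested) and -0.73 (25 tested), and 31 and 15 were lower.

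None of the 3 reassigned members was called. MRPS30 held 3730, 3544 and 3617 normalized counts in RIP and 4126, 4473 and 3801 in input, a fold of -0.18 ± 0.12 (SE, limma adjusted p = 0.23). Its RIP libraries stood under the inputs by a narrow margin. MRPS18A held 651, 1130 and 876 against 849, 1131 and 1231, at -0.29 ± 0.23 (SE, limma adjusted p = 0.33). MRPS36 held 209, 241 and 273 against 264, 273 and 313, at -0.24 ± 0.28 (SE, limma adjusted p = 0.54). The groups of both overlapped. With total-read scaling the signs of all 3 turned, to 0.31 for MRPS30, 0.20 for MRPS18A and 0.26 for MRPS36.

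The balance of the subunits within a library also did not separate the groups. Summed by symbol, large over small was 1.92, 2.06 and 1.94 in RIP and 2.08, 1.98 and 2.06 in input. By structure the ratios were 2.41, 2.56 and 2.34 in RIP and 2.46, 2.33 and 2.37 in input. Both ranges overlapped, and the difference between subunits was not tested.

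Members with a bacterial counterpart and those found only in mitochondria had similar median folds. Of the 43 tested with a counterpart, assigned by number, 29 were lower and 1 higher, with a median fold of -0.78. Of the 28 mitochondria-specific ones, 17 were lower and 2 higher, with a median of -0.72. The shares of all tested genes were 21.3% lower and 22.5% higher. Within the small subunit the medians were -0.81 (15 tested) and -0.34 (9 tested), with 11 and 4 lower. Within the large subunit they were -0.70 (28 tested) and -0.81 (19 tested), with 18 and 13 lower. MRPS18A, MRPS18B, MRPS30 and MRPS36 were kept out of both classes, at folds of -0.29, -0.26, -0.18 and -0.24. None of these was called, so the small-subunit medians do not cover all tested members of that subunit. Among the members classed, the classes thus ordered oppositely in the subunits, a description without a test. Over 73 members with at least 100 normalized counts in input, Pearson's r of the fold with the log2 input level was 0.0097 and Spearman's rho was -0.056. The points share their libraries, and the input enters both axes.

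The RIP libraries differed among themselves over the members. Replicate 1 was the lowest of the 3 for 50 tested members and the highest for 4, and replicate 3 was the highest for 45 and the lowest for 3. Replicate 2 was lowest for 22 and highest for 26. The median log2 distance of the members from the input mean was -0.90 in replicate 1, -0.58 in replicate 2 and -0.59 in replicate 3. Without replicate 1, 36 members were lower and 3 higher, with a median fold of -0.53. Of the 16674 tested genes, 3450 were then lower and 3362 higher. A further comparison was possible with the inputs that have no column of their own, whose mean follows from the deposited mean over 9 libraries. Against that mean 68 tested members were again below 0, with a median of -0.85, but without replicate values there is no test.

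Most of the other genes listed here as subunits of the mitochondrial ribosome were lower too. Of 6 without an MRP symbol, 5 were lower and 0 higher, with a median of -0.99, beside 21.3% and 22.5% of all tested genes. ICT1 is listed as MRPL58 and is a member. AURKAIP1, of the small subunit, was at -1.33 ± 0.25 (SE, limma adjusted p = 0.0010). DAP3, the GTP-binding protein of the small subunit, was at -0.92 ± 0.18 (SE, limma adjusted p = 0.0015). NDUFAB1, the acyl carrier protein, counted in this list although it belongs to complex I, was at -1.18 ± 0.25 (SE, limma adjusted p = 0.0022). PTCD3, a pentatricopeptide protein of the small subunit, was not called at -0.22 ± 0.12 (SE, limma adjusted p = 0.15). By edgeR and by DESeq2, 4 of the 6 were lower and 0 higher, and 0 were higher at an unadjusted limma p under 0.05.

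Of 24 tested factors that assemble the ribosome, 9 were higher and 2 lower (37.5% and 8.33%, beside 22.5% and 21.3% of all tested genes), with a median fold of 0.25. The difference from the subunits was not tested. MTERF3, which acts on ribosome assembly and mitochondrial transcription, was at 1.21 ± 0.14 (SE, limma adjusted p = 3.0e-05). FASTKD5, an RNA-processing protein, was at 1.05 ± 0.15 (SE, limma adjusted p = 0.00016), and the DEAD-box helicase DDX28 at 1.15 ± 0.19 (SE, limma adjusted p = 0.00046). The 2 lower ones were ERAL1, a chaperone of the small rRNA, at -0.79 and NGRN at -0.61.

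Of 18 tested translation factors, 7 were lower and 2 higher (38.9% and 11.1%), with a median of -0.45. TUFM, the elongation factor that brings tRNA to the ribosome, was at -1.79 ± 0.16 (SE, limma adjusted p = 5.6e-06). MTRFR, a rescue factor for stalled ribosomes, was at 1.61 ± 0.17 (SE, limma adjusted p = 1.9e-05). GUF1, a translational GTPase, was at -1.14 ± 0.13 (SE, limma adjusted p = 2.7e-05). Of 18 tested genes of mitochondrial transcription and RNA processing, 6 were higher and 4 lower, with a median of -0.04. These shares, 33.3% and 22.2%, are near those of all tested genes. HSD17B10, a subunit of mitochondrial RNase P, was at -1.55, FASTKD3 at 1.30 and the poly(A) polymerase MTPAP at 0.80, all past the threshold.

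Both large nuclear-encoded groups that also serve ribosomes or mitochondria had medians further below 0 than the members. All 77 cytosolic ribosomal protein mRNAs were lower by limma (75 by edgeR), at least 2-fold each, with a median fold of -1.95 and a range of -3.46 to -1.22. RPL32, shown above, was at -2.31. Of 79 tested respiratory chain and ATP synthase subunits, 74 were lower and 0 higher, with a median of -1.63, and 74 were lower and 0 higher by edgeR and by DESeq2 too. At an unadjusted limma p under 0.05, 0 of them were higher. Those with the smallest p were UQCRH at -2.10 and UQCR10 at -2.12, of complex III, and COX7C at -2.26, of complex IV. The 13 mitochondrially encoded mRNAs were all lower, with a median of -4.87, and MT-ND3, MT-ND4L and MT-ND1 had the smallest p, at -4.87, -4.87 and -5.05. The difference between these lists was not tested, and each uses the same 6 libraries.

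**Figure D3:**
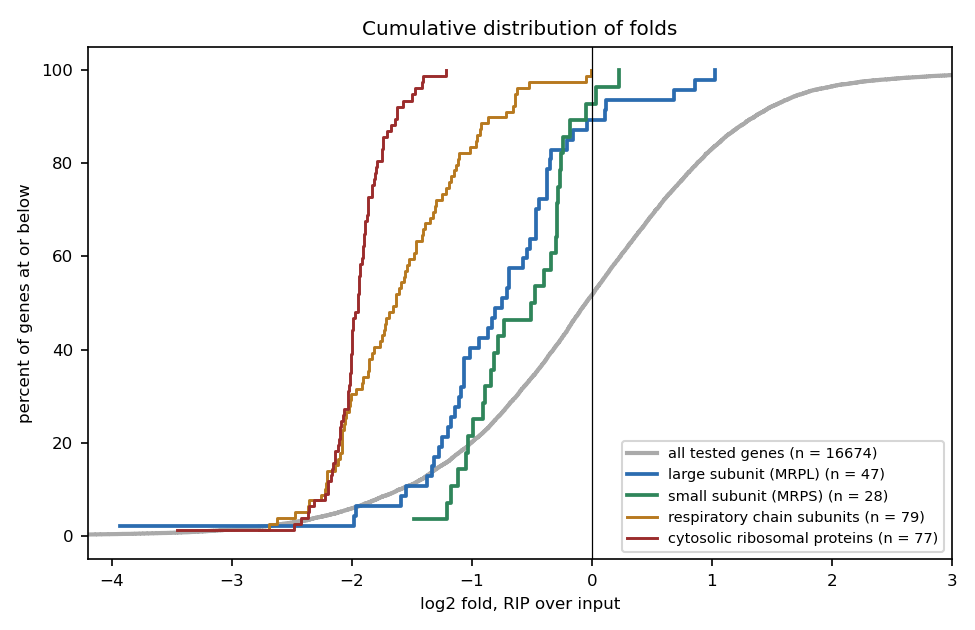
Cumulative distribution of the log2 fold of RIP over input, as percent of genes at or below each value, for large-subunit (47) and small-subunit (28) members, respiratory chain subunits (79), cytosolic ribosomal proteins (77) and all 16674 tested genes. The curves of both subunits lie between that of all genes and those of the other lists through their middle, with medians of -0.75 and -0.49 by symbol beside -1.63, -1.95 and -0.05.

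Few members had the 5′ pyrimidine tract that most cytosolic ribosomal protein genes have. In all, 69 members matched the RefSeq promoter table, which gives 250 bases before and 50 after 1 start per gene. A pyrimidine tract began at the first base in 5 of 69 members (7.25%), beside 4.60% of 15842 protein-coding genes. Among 62 cytosolic ribosomal protein genes in the table it was 42 (67.7%), as in RPS6 and RPS19 above. Allowing the tract within 5 bases of the start gave 21.7% of members, 22.1% of all and 80.6% of cytosolic ribosomal proteins. MRPL44, the member with the highest fold, was 1 of the 4 tested members with a tract at the first base. Its RefSeq gene span begins further upstream, so the table's start is not its only one. The others, MRPL45, MRPS33 and MRPS27, were all lower in RIP, at -0.69, -1.11 and -0.51.

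Some short words bound by known transcription factors were more frequent near the members' starts than in general. CCGGAAG, the ETS-type word, stood in 42.0% of member windows on either strand, against 14.2% of all windows. AAGATGG, a YY1-type word that holds an ATG and can span a start codon, stood in 33.3% against 6.40%. GCGCATG, an NRF1-type word, stood in 10.1% against 5.87%, and the TATA box, TATAAA, in 2.90% against 9.63%. In respiratory chain windows the ETS-, YY1- and NRF1-type words stood in 29.4%, 23.5% and 20.6%. In cytosolic ribosomal protein windows they stood in 33.9%, 12.9% and 9.68%. A share above that of all windows was thus not particular to the members, and NRF1-type words were more frequent in the respiratory chain list. CCAAT stood in 29.0% against 36.4% and GGGCGG, the GC box, in 60.9% against 58.5%. A window can hold several of these words. MRPS34 holds a pair of ETS-type words, and MRPL50, MRPS7 and MRPS30 hold the YY1-type word, in capitals above. The full window of MRPL11 holds the YY1-type word too, but its printed stretch does not hold the whole word.

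Split by these words, 20 of 27 tested members with CCGGAAG were lower and 0 higher, with a median fold of -0.91, and without it 22 of 39 were lower and 3 higher, with a median of -0.51. A gap of like size appeared with GGGCGG: 23 of 39 with it were lower and 3 higher, with a median of -0.51, and 19 of 27 without it were lower and 0 higher, with a median of -0.84. With AAGATGG, 13 of 21 were lower and 1 higher, with a median of -0.51, and without it 29 of 45 were lower and 2 higher, with a median of -0.81. With CCAAT there was no such gap: the median was -0.72 for the 20 members with it and -0.72 for the 46 without. With GCGCATG the medians were -0.57 (7 members) and -0.73 (59 without it). Only MRPL54 and MRPS15, both lower, held TATAAA. Longer forms of the YY1- and NRF1-type words were searched first and are not reported here. The words were chosen with the folds known, and these splits have no test. A match is a stretch of letters and not a measured binding site.

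**Figure D4:**
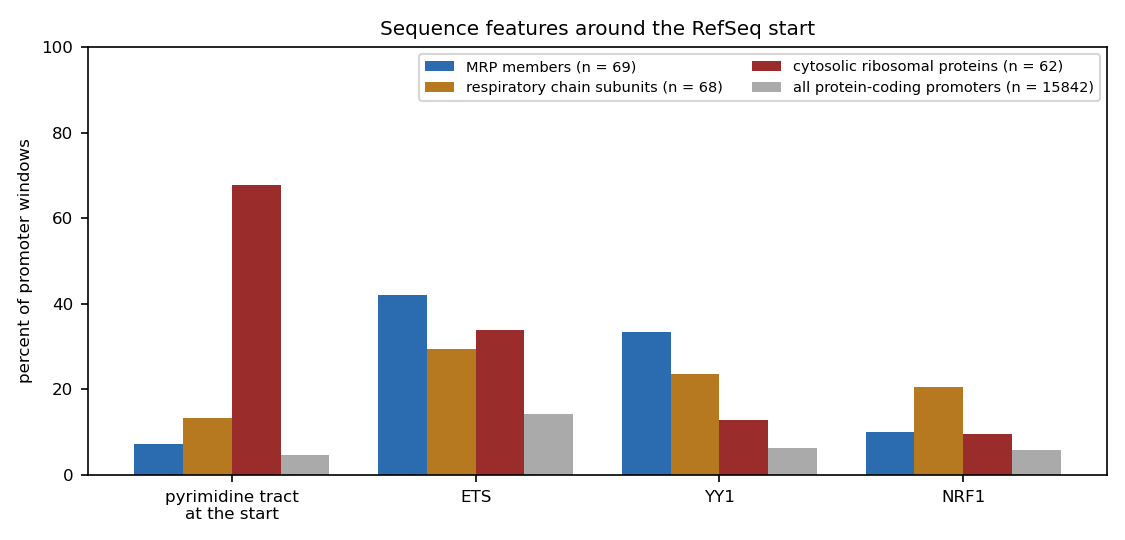
Percent of RefSeq promoter windows with a pyrimidine tract at the first base or with an ETS-, YY1- or NRF1-type word, for 69 members, 68 respiratory chain subunits, 62 cytosolic ribosomal proteins and 15842 protein-coding genes, with bars from 0. The tract stands in 67.7% of cytosolic ribosomal protein windows and 7.25% of member windows, and the ETS-type word in 42.0% of member windows.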

How the data were processed

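Per the labels, cytoplasmic RNA without ribosomal RNA was sequenced from a single end, at 75 bp. The submitters' processing notes name STAR, featureCounts, DESeq2 and GRCh38. Versions, annotation and strand setting were not given there. Values per library are a signal, since the authors divided each library's gene counts by its size factor before depositing them, and 100% came out as whole reads within 0.01 of a read. The log2 fold, its SE and the adjusted p-value in the authors' deposited table come from DESeq2, per the file headers. The deposited fold equalled the log2 ratio of the column means within 0.015 for 12402 genes with a deposited mean over 100, so the 3 input columns are those the authors compared. The deposited mean covers 9 libraries.

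The main test was limma 3.58.1 (R 4.3.3, trend) on log2(normalized count + 1), for genes with at least 10 normalized counts in at least 3 libraries. edgeR 4.0.16 and DESeq2 1.42.0 ran on recovered reads as alternatives, as did other scalings, filters and left-out libraries. limma and edgeR were tested on simulated data. Chi-square per degree of freedom within groups was 29.9 to 82.8, so no library was a duplicate. The labels do not say whether replicates were separate cultures, and the spread behind each p-value may be technical.

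Members and lists were chosen with earlier results of these data known. A marker of the line and some cytosolic ribosomal proteins are not reported here. Values per library are given for members called higher, the 6 called members lowest in each subunit, the 2 nearest the threshold on each side, MRPS30, MRPS18A and MRPS36. Members with few reads were added with their values known. Each companion list except the cytosolic ribosomal proteins is given by the 3 members with the smallest p. Others named there were picked with their values in view. A further part of the rule, the members highest in input per coding length, was not used because coding lengths were not used here. Positions and promoters came from RefSeq tables of GRCh38.p14, which placed all 78 members.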

Additional observations from a re-analysis of the deposited data

How the results depend on the processing

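Scaling by total reads gave 20 members lower and 5 higher (14 lower in the large subunit, and 6 lower and 1 higher in the small one), with medians of -0.21 for all members, -0.26 for the large and 0.0053 for the small subunit. Over all genes it gave 1652 lower and 6155 higher. It turned the sign of MRPL1 to 0.033, MRPL19 to 0.057, MRPS22 to 0.21, MRPS30 to 0.31, MRPS18A to 0.20 and MRPS36 to 0.26. Mitochondrially encoded RNA, which takes far more of the input reads, enters that total, and without it 37 members were lower and 3 higher. Over all genes, 2939 were lower and 4354 higher without it. A 2-fold minimum left 24 lower and 1 higher (18 and 1 in the large subunit, 6 lower in the small one). For each subunit alone the thresholds were chosen after seeing the data. By structure the small-subunit median was -0.73, and against the mean of the other inputs it was -0.78, where MRPS36 stood at 0.20. The cause of these shifts was not tested.

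With 1 library left out, 32 to 45 members were lower and 3 higher. Of the 16674 tested genes, 2863 to 3711 were then lower and 3109 to 3816 higher. The median of the members minus that of all genes ran from -0.81 to -0.45, the latter without RIP replicate 1. Another pseudocount, both filters, TMM scaling, edgeR, DESeq2 and the authors' deposited table gave 43 to 47 lower and 3 higher. Over all genes these settings gave 3286 to 4108 lower and 3480 to 4254 higher, of 12370 to 29350 tested. No paired analysis was possible because each input column fits a replicate of both kinds of input and could be placed only in the input group, with no replicate number of its own. Low counts limit what can be said of MRPS24, MRPL38, MRPL53, MRPL23 and MRPL46, and MRPL54 had no read in RIP replicate 2. The cause of these low counts was not tested.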
